A study of Mus musculus with 2 samples.

Results

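The 10 genes described here are *Gata4*, *Gata6*, *Sox7*, *Sox17*, *Foxa1*, *Foxa2*, *Dab2*, *Pdgfra*, *Afp* and *Ttr*, which mark primitive or definitive endoderm in the early mouse embryo. They were taken by symbol from the 29311 genes with a value in the RNA-seq tables, and all 10 were listed. Total RNA was sequenced from 1 library of E14 mouse embryonic stem (ES) cells, a wild-type line related to the inner cell mass and grown without feeder cells in serum and LIF, and from 1 library of wild-type B6CBAF1/J forebrain at embryonic day E10.5. The labels name no treatment of either sample. According to the methods of the study, forebrain RNA was prepared from single embryos, and the ES cells are 1 line. The design text of the series speaks of 2 biological samples without saying whether this is the number in all or per group, and each group is represented here by 1 library. None of the values below has a replicate, and no test between the samples was possible. The values are gene levels that the authors call RPKM, reads per kilobase of exon scaled per library.

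Primitive endoderm is the first endoderm of the embryo. It separates from the pluripotent epiblast in the blastocyst under FGF signalling and forms the visceral and parietal endoderm of the yolk sac, whereas definitive endoderm arises at gastrulation and gives rise to the gut. GATA6 and GATA4, zinc finger factors, and SOX17 and SOX7, HMG box factors of the SoxF group, drive the primitive endoderm programme, and the forkhead factors FOXA1 and FOXA2 act in definitive endoderm. The receptor PDGFRA and the endocytic adaptor DAB2 are early membrane-associated markers, while *Afp* (alpha-fetoprotein) and *Ttr* (transthyretin) encode proteins secreted by visceral endoderm and liver. Several of these genes are also known from other tissues, such as *Pdgfra* in head mesenchyme, SoxF genes in endothelium, FoxA genes in the floor plate of the neural tube and *Ttr* in the choroid plexus.

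In ES cells all 10 genes were below the median of all listed genes, 48.94, with RPKM values from 0 to 7.25 and a median of 1.25. In E10.5 forebrain, 9 of the 10 genes had the higher value. Each of these was at least 2-fold higher on log2(RPKM + 1), as were 25.8% of all listed genes. The forebrain levels of the 10 genes were spread from 0.52 to 1795.6 with a median of 22.86 (all listed genes, 62.37). *Pdgfra* and *Dab2* differed most, followed by the FoxA and SoxF genes. *Gata4* alone had the higher value in ES cells. Both libraries gave low values for *Afp* and *Ttr*.

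**Figure D1:**
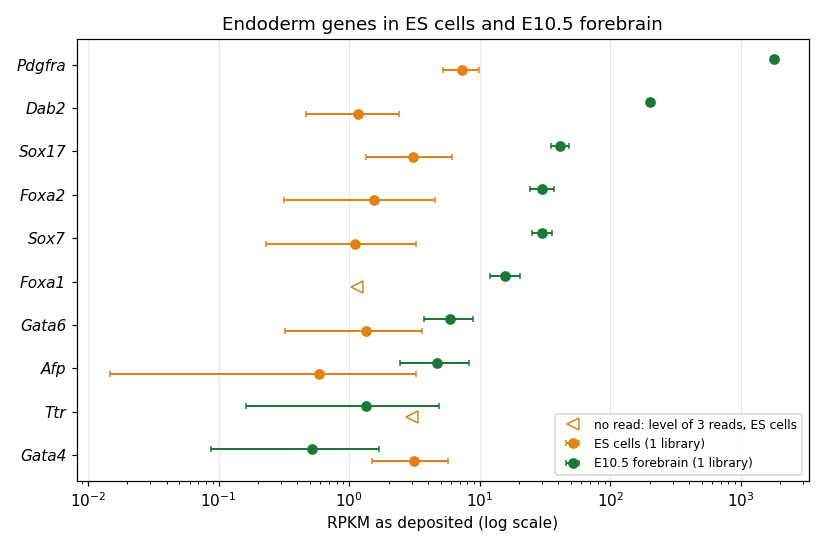
RPKM as deposited (log axis) of the 10 endoderm genes in ES cells and E10.5 forebrain, 1 library each; bars are exact 95% Poisson limits of the counted reads, and open triangles give the RPKM of 3 reads where no read was found. The intervals of both samples lie apart for 7 genes, all higher in forebrain, which holds for 31.1% of all listed genes in this direction and 27.2% in the other, and they overlap for *Gata4*, *Afp* and *Ttr*.

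The number of reads behind these values was inferred from a step, the contribution of 1 read. Among genes of at most 2500 bp of exon, most low RPKM values multiplied by exonic length lay close to whole multiples of this step. The same step was applied to longer genes, which include most of the 10. Some inferred values are not whole, which happens where reads are divided between genes. Summed over genes, the ES cell library held 42781377.5 reads and the forebrain library 59782046.7, which is 1.4 times as many. Together the 10 genes held 75.5 reads in the former and 17049 in the latter. Of the 10 genes, 7 had at least 3 reads in ES cells and 8 did in forebrain, compared with 76.5% and 78.8% of all listed genes. Intervals given below are exact 95% intervals on the inferred reads. They cover counting error only and not the variation between cultures or embryos.

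Markers of pluripotent and forebrain cells describe both samples. Their lists were chosen with earlier results of these data known, so they are no independent check of identity. All 10 pluripotency genes were at least 2-fold higher in ES cells, with *Nanog* at an RPKM of 4968.03 and 9.13 in forebrain. All 9 listed forebrain genes were at least 2-fold higher in forebrain, with *Emx2* at 0.91 in ES cells and 268.86 in forebrain. The forebrain library also held high levels of embryonic globin transcripts, with *Hbb-y* at 367633 and 167.15 in ES cells.

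Promoter sequences from RefSeq (GRCm38.p6, a later build than the mm9 coordinates of the tables) were matched for 5 of the 10 genes, *Foxa1*, *Foxa2*, *Dab2*, *Pdgfra* and *Afp*. The 250 bases before the first annotated start are shown for the 3 genes whose first window held a searched motif. They are 1 each from a transcription factor, an adaptor and a secreted protein. Capitals mark matches on either strand. For GATA factors the letters searched were AGATAA and, as a variant, TGATAA, for SOX factors ACAATG, for FOXA factors TGTTTAC, for part of the HNF1 site GTTAAT and for the TATA box TATAAA.
Foxa1 (chr12:57546112-57546361, minus strand): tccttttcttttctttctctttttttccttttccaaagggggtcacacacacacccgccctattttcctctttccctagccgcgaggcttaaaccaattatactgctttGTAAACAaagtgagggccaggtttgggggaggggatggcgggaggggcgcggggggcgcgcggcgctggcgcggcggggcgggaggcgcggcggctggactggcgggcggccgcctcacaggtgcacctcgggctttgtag
Dab2 (chr15:6299539-6299788, plus strand): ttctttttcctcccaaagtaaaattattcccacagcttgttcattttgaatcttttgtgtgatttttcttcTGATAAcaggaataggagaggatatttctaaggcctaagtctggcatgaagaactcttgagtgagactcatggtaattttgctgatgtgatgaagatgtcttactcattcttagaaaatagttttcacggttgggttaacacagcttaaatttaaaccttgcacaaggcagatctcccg
Afp (chr5:90490464-90490713, plus strand): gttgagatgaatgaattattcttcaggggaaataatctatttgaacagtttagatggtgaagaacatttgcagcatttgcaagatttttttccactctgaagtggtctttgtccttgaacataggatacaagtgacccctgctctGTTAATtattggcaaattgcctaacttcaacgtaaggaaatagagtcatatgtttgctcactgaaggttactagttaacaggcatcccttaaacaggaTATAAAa
In *Foxa1* the match was TGTTTAC on the strand opposite to the one shown, so that it is printed as GTAAACA. The match began 141 bases before the start, and 3.17% of 32851 RefSeq windows of the same length hold this motif. In *Dab2* it was TGATAA, 179 bases before the start (7.94% of windows). In *Afp* these were GTTAAT, 105 bases before the start (6.43% of windows), and TATAAA, 7 bases before it (12.4% of windows). These letter matches were not tested for binding, and the first windows of *Foxa2* and *Pdgfra* held none of the motifs. Windows of further starts, not shown, also held matches. For *Foxa2*, the window with 13 CpGs held AGATAA (9.99% of windows), GTTAAT and TATAAA, and the further window of *Dab2* held GTTAAT. The first windows also differed in CpG content, with 21 CpGs in *Foxa1*, 6 in *Foxa2*, 4 in *Pdgfra*, 2 in *Dab2* and 1 in *Afp*, around a median of 6 over all windows. At the further starts there were 20 and 13 CpGs in *Foxa2* and 17 in *Dab2*. Which start is used in these samples was not tested, so the content of these 2 genes depends on the window. The genes with first windows of few CpGs include both *Pdgfra*, the highest of the 10 genes in forebrain, and *Afp*, one of the lowest.

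*Gata6* (chromosome 18, 11052508 to 11085633, mm9) encodes the factor that starts the primitive endoderm programme. Its RPKM was 1.34 in ES cells (from 3.5 inferred reads, 0.323 to 3.64) and 5.90 in E10.5 forebrain (23 reads, 3.74 to 8.85). The intervals lay close to each other but did not overlap, and the ratio of forebrain over ES cells was 4.40 (1.43 to 19.7). *Gata4* (chromosome 14, 63817759 to 63890529), its paralog in the same programme, had an RPKM of 3.12 in ES cells (10 reads, 1.5 to 5.74) and 0.52 in forebrain (2.5 reads, 0.0871 to 1.68). *Gata4* was thus the only one of the 10 genes that was lower in forebrain, by a ratio of ES cells over forebrain of 6 (1.42 to 41.3), although the intervals of its single values overlapped. With so few reads, both GATA genes were close to the limit of detection in the sample with the lower value.

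The remaining GATA factors, from a list of paralogs, are known from other lineages and were all higher in forebrain. *Gata1*, the erythroid factor, had 6.76 in ES cells and 137.91 in forebrain, and *Gata2*, which acts in blood progenitors and endothelium, had 7.65 and 109.14. *Gata3* had 0.92 and 41.08. *Gata5*, another endodermal and cardiac factor, remained low in both samples at 0.15 and 1.81. In forebrain, *Gata4*, *Gata5* and *Gata6* therefore had lower RPKM values than each of *Gata1*, *Gata2* and *Gata3*.

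The SoxF genes *Sox17* and *Sox7* act beside the GATA factors in endoderm and are also expressed in developing vessels. *Sox17* (chromosome 1, 4481009 to 4486494) had an RPKM of 3.10 in ES cells (8 reads, 1.34 to 6.10) and 41.29 in forebrain (159 reads, 35.1 to 48.2), a ratio of 13.3 (6.61 to 31.4). *Sox7* (chromosome 14, 64562511 to 64569569) had 1.11 in ES cells (3 reads, 0.229 to 3.25) and 30.05 in forebrain (121 reads, 24.9 to 35.9), a ratio of 27.1 (9.04 to 133). For both genes the forebrain interval lay far above that of ES cells. The third SoxF gene, *Sox18*, a factor of endothelium and not of endoderm, had 0.75 and 60.67, the highest forebrain value of the group.

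*Foxa1* (chromosome 12, 58641618 to 58647108) had no read in ES cells (0 to 1.41), where 3 reads would correspond to an RPKM of 1.15. In forebrain it had 15.67 from 61 reads (12.0 to 20.1). Its forebrain value was 13.6 times this floor of 3 reads, which is not a lower limit of the ratio. *Foxa2* (chromosome 2, 147868613 to 147872705), the FoxA gene of definitive endoderm, node and floor plate, had 1.55 in ES cells (3 reads, 0.319 to 4.52) and 30.07 in forebrain (87 reads, 24.1 to 37.1), a ratio of 19.4 (6.44 to 96.2). The third FoxA gene went the other way. *Foxa3*, expressed in gut and liver, had 37.72 in ES cells (63 reads) and 1.21 in forebrain (3 reads). In ES cells it was higher than any of the 10 genes, though below the median of all listed genes, 48.94. Over the 12 GATA, SoxF and FoxA genes, 10 were at least 2-fold higher in forebrain and 2 in ES cells. Among all listed genes these shares were 25.8% and 23.3%. Of the 12 genes, 6 are among the 10 described here, so this count partly repeats theirs.

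*Pdgfra* (chromosome 5, 75548316 to 75594229), the receptor for PDGF-A, had an RPKM of 7.25 in ES cells (40 reads, 5.18 to 9.87) and 1795.6 in forebrain (14768.1 reads, 1767 to 1825). Its ratio of 248 (182 to 347) was the largest of the 10, and it alone held 84.4% of their summed RPKM in forebrain. *Pdgfa*, which encodes its ligand, had the opposite difference, with 1597.03 in ES cells and 124.61 in forebrain. Ligand and receptor were therefore each high in a different sample. Among the other PDGF genes, *Pdgfrb*, the receptor of pericytes and mesenchyme, had 26.74 and 764.21, and *Pdgfd* had 0.39 and 43.33. *Pdgfb* and *Pdgfc* were within 2-fold, with 41.42 and 65.54 for the former and 120.19 and 132.46 for the latter.

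*Dab2* (chromosome 15, 6249788 to 6390712) had 1.16 in ES cells (7 reads, 0.468 to 2.40) and 202.32 in forebrain (1813.4 reads, 193 to 212), a ratio of 174 (84.2 to 433). It is listed under another identifier as well, ENSMUSG00000079102, which lies within the first, with 0 and 1.19 from 0 and 2 reads. Its paralog *Dab1*, an adaptor of reelin signalling in neurons, had the same level in both samples within 2-fold, at 71.23 in ES cells and 70.91 in forebrain.

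The genes of secreted proteins were barely detected. *Afp* (chromosome 5, 90919740 to 90937933) had 0.59 in ES cells from 1 read (0.0148 to 3.26) and 4.71 in forebrain from 12 reads (2.43 to 8.23). The ratio was 7.98 with a wide interval (1.19 to 344), and the intervals of the single values overlapped. *Ttr* (chromosome 18, 20823751 to 20832825) had no read in ES cells, where 3 reads would give an RPKM of 3.00, and 1.34 in forebrain from 2 reads (0.163 to 4.85). Both values of *Ttr* were under the floor of 3 reads, so that no ratio is given and a difference was not detectable at this depth. *Alb*, the neighbour and relative of *Afp* that encodes serum albumin, had 1 read in ES cells and 0 in forebrain.

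Differences were taken as log2(RPKM + 1), on which weakly expressed genes appear less changed than they are. On this scale, 9 of the 10 genes were at least 2-fold higher in forebrain, compared with 25.8% of all listed genes. In the other direction this held for 1 gene (23.3% of all listed genes). At 4-fold, 6 genes were higher in forebrain (14.4%) and 0 in ES cells (11.3%). The median difference of forebrain minus ES cells was 3.49 over the 10 genes and 0.01 over all genes. The 9 genes include *Ttr*, for which the difference of 1.23 rests on 2 reads. The 10 genes were chosen as endoderm markers, and several share a paralog or a known tissue, so they are not independent of each other. The scatter plot of all genes shows the 10 genes at the left margin, where ES cell values are low.

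**Figure D2:**
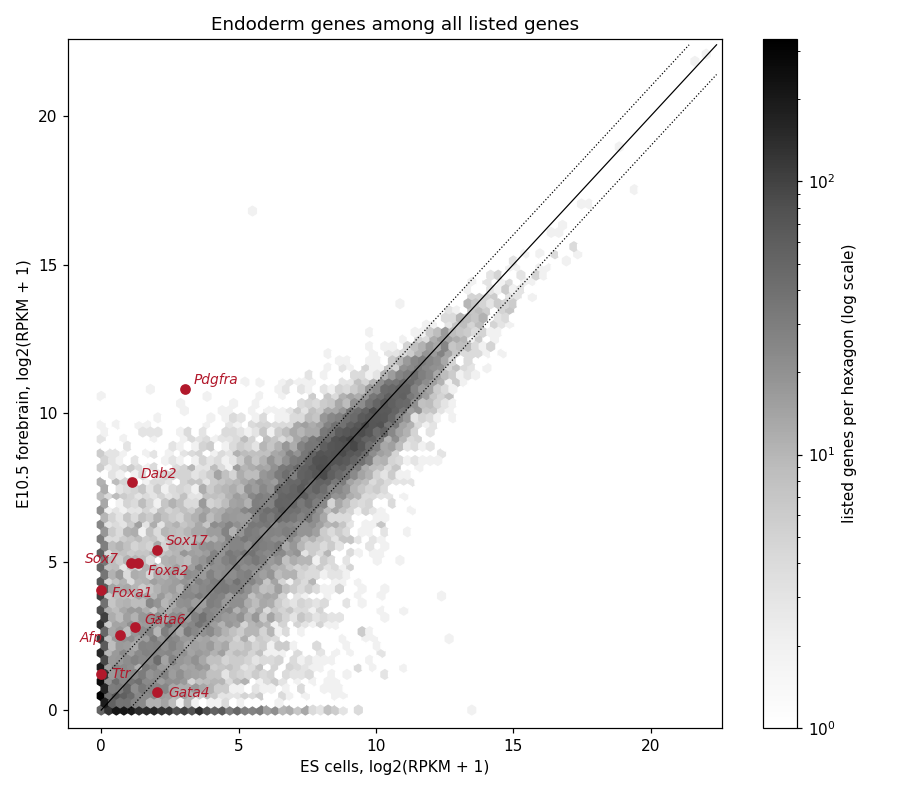
Level of each of the 29311 listed genes in ES cells (horizontal axis) and E10.5 forebrain (vertical axis), both as log2(RPKM + 1); grey shading gives the number of genes, red points are the 10 endoderm genes, the solid line marks equal values and dotted lines a 2-fold difference. *Pdgfra* and *Dab2* lie farthest above the line (differences of 7.77 and 6.56), and *Gata4* lies below it (-1.44).

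Ranks within a library do not depend on the scaling between libraries. In ES cells the 10 genes lay between percentiles 4.55 and 30.9 of all listed genes (median 17.2), and 0 of the 10 exceeded the median gene. In E10.5 forebrain their percentiles extended from 12.0 for *Gata4* to 93.3 for *Pdgfra* (median 39.5), and only *Pdgfra* and *Dab2* (63.9) were above the median gene. *Sox17*, *Foxa2*, *Sox7* and *Foxa1* followed at 45.9, 42.6, 42.6 and 36.4. In forebrain, the order of the levels had clear steps from *Pdgfra* to *Dab2*, from *Dab2* to *Sox17*, from *Sox7* to *Foxa1* and from *Foxa1* to *Gata6*, while the intervals of *Sox17*, *Foxa2* and *Sox7*, and of *Gata6* and *Afp*, overlapped between neighbours. In ES cells the intervals of all neighbours in the order overlapped, so that their order was not resolved.

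**Figure D3:**
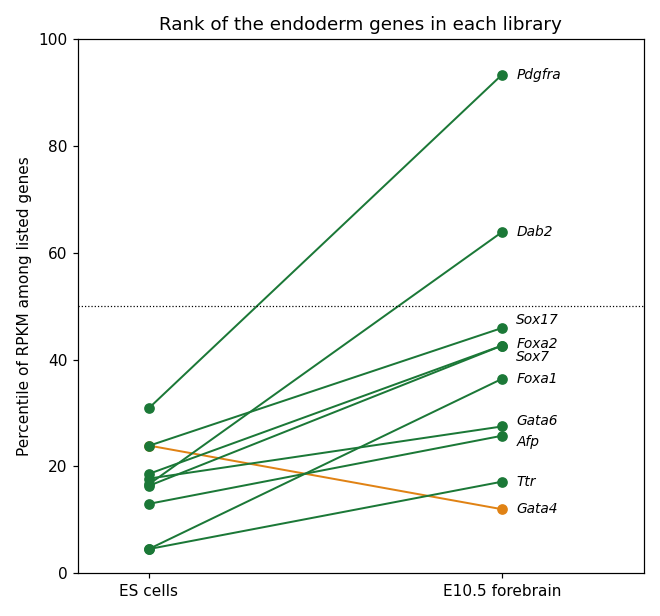
Percentile of each of the 10 endoderm genes among all listed genes in ES cells (left) and E10.5 forebrain (right), joined by a line that is green where RPKM was higher in forebrain and orange where it was higher in ES cells; the dotted line marks the median gene. *Pdgfra* moves from percentile 30.9 to 93.3, whereas *Gata4* moves from 23.9 to 12.0.

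Other endoderm genes, taken from fixed lists that exclude the 10, did not share a direction. Of 20 listed genes of visceral endoderm and yolk sac, 4 were at least 2-fold higher in forebrain and 9 in ES cells, with a median difference of forebrain minus ES cells of -0.87 on the log2 scale. *Hnf4a*, the nuclear receptor that defines visceral endoderm, had 77.72 in ES cells (319.5 reads) and 0 in forebrain. *Spink3*, which encodes a protease inhibitor, had 251.7 and 0. *Slc39a4*, a zinc transporter, had 394.46 and 1.09, and *Amn*, which forms an endocytic receptor with cubilin, had 16.66 and 1.94. The genes higher in forebrain were *Lrp2*, a receptor also known from neuroepithelium, with 60.13 and 163.49, *Apoa2* with 4.55 and 30.51, *Rbp4* with 3.77 and 11.05 and *Cubn* with 2.07 and 8.42. *Cubn* falls below the level of 10 set for naming such genes and was added after its value was seen. Of the other genes of secreted proteins, *Trf*, which encodes transferrin, had 801.8 in ES cells and 319.47 in forebrain, the highest forebrain value of the list. The apolipoprotein genes *Apom* (97.88 and 40.6) and *Apob* (16.08 and 4.94) were likewise higher in ES cells, while *Apoa1* had 1.98 and 4.64, from 2 and 7 reads. *Trf*, *Apom* and *Apoa1* were also named after their values were seen.

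Among 16 genes of parietal endoderm and basement membrane, 8 were at least 2-fold higher in forebrain and 3 in ES cells (median difference 0.78). The 5 with the largest difference towards forebrain were *Pth1r* (7.83 in ES cells and 1105.04 in forebrain), the collagen genes *Col4a2* (21.76 and 2027.43) and *Col4a1* (44.5 and 3507.68), *Plat* (12.06 and 947.41) and *Thbd* (14.45 and 171.18). These genes are also expressed in vessels or mesenchyme. The genes higher in ES cells were *Pga5*, which encodes a pepsinogen, with 20.26 and 0, the keratin gene *Krt19* with 218.37 and 54, and *Lamc1*, a laminin subunit, with 1949.89 and 557.63, and *Sparc* had 3148.26 and 3243.15.

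Of 14 listed genes of anterior visceral and definitive endoderm, 6 were at least 2-fold higher in each sample (median difference -0.46). In ES cells the higher genes included *Trh* (31868.2 and 42.02 in forebrain), *Lefty1* (803.15 and 5.59), a NODAL antagonist, *Epcam* (1685.28 and 205.98) and the claudin gene *Cldn6* (453.97 and 143.04). In forebrain they included *Cxcr4* (25.66 and 884.78), *Otx2* (78.53 and 989.44) and *Lhx1* (0.3 and 15.01), which also act in the developing brain, *Gsc* (8.69 and 85.79) and *Eomes* (90.06 and 233.7). Thus *Hnf4a*, *Foxa3*, *Trh* and *Lefty1* each exceeded all 10 genes in the ES cell library. Most listed genes did so as well, because the highest of the 10 there, *Pdgfra*, lay at percentile 30.9.

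FGF signalling, the input to primitive endoderm, was examined by 10 genes. *Fgf4*, the ligand made by the epiblast, had 1476.32 in ES cells and 1.89 in forebrain. Its receptors went the other way, with *Fgfr2*, the primitive endoderm receptor, at 59.98 and 655.77 and *Fgfr1* at 243.79 and 508.67. Of the feedback and target genes, *Spry4* (1294.06 and 96.34), *Etv5* (2989.53 and 322.14), *Etv4* (1781.94 and 288.95) and *Spry2* (1798.22 and 386.37) were higher in ES cells, while *Dusp6* was within 2-fold. In all, 5 of these 10 genes were at least 2-fold higher in ES cells and 2 in forebrain.

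Markers of other cell types that are known to express some of the 10 genes were then compared in the same libraries. All 12 head mesenchyme genes were at least 2-fold higher in forebrain, with a summed RPKM of 98.09 in ES cells and 21866 in forebrain. Their values in forebrain included 1556.07 for *Twist1*, 1698.58 for *Lum* and 10812 for *Col3a1*, beside the 1795.6 of *Pdgfra*. Of 10 endothelial genes, 9 were at least 2-fold higher in forebrain and *Pecam1* was not (551.14 in ES cells and 316.51 in forebrain), and the sums were 687.24 and 3125.26. *Cdh5*, which defines endothelium, had 1.53 and 325.7, beside *Sox17* and *Sox7* at 41.29 and 30.05 in forebrain.

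For ventral midline and floor plate, 9 of 10 genes were at least 2-fold higher in forebrain and 1, *Ntn1*, in ES cells. *Shh*, the signal of the floor plate, had 0 in ES cells and 164.91 in forebrain, and *Nkx2-1* had 0 and 85.03, beside *Foxa2* at 30.07. The sums of this list, 1778.75 and 1819.53, were close because of the 1582.05 of *Ntn1* in ES cells. Of 13 genes of choroid plexus and dorsal midline, 9 were at least 2-fold higher in forebrain and 3 in ES cells, and the sums were 3131.97 and 3975.38. The dorsal midline factors *Lmx1a* and *Msx1* reached 173.69 and 1491.72 in forebrain, and *Bmp4* had 1748.68 in ES cells and 264.07 in forebrain. The genes known from choroid plexus epithelium, beside *Ttr* at 0 and 1.34, differed in direction. *Enpp2* (10.19 in ES cells and 555.65 in forebrain), *Aqp1* (0.46 and 49.11) and *Clic6* (3.28 and 38.92) were higher in forebrain, whereas *Folr1* (1238.67 and 42.43) and *Kcne2* (2.76 and 0.46) were higher in ES cells, and *Kl* had 0.65 and 1.68. *Clic6*, *Kcne2* and *Kl* were named after their values were seen. All 10 primitive blood genes were at least 2-fold higher in forebrain, with sums of 421.91 and 801104. The part of each of these cell types in the values of the 10 genes was not tested, and fewer cells of a type cannot be told apart from less RNA per cell in these bulk samples.

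**Figure D4:**
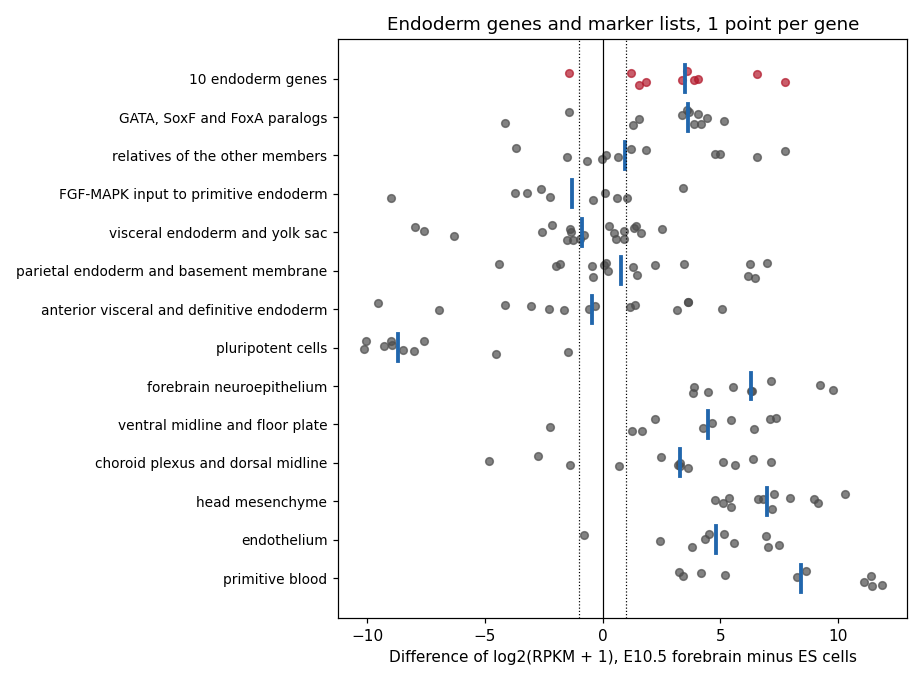
Difference of log2(RPKM + 1), E10.5 forebrain minus ES cells, for the 10 endoderm genes (red) and 13 fixed lists (grey), 1 point per gene with vertical jitter only; blue bars are medians, and dotted lines mark a 2-fold difference. The lists of visceral and of anterior visceral and definitive endoderm extend to both sides, with medians of -0.87 and -0.46, while all 12 head mesenchyme genes lie to the right; the first 2 grey lists share genes with the 10.

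The genomic surroundings of the 10 genes were examined within 50 kb in the mm9 annotation. Next to *Gata4*, *Fdft1* had 681.94 in ES cells and 837.28 in forebrain and *Neil2* 66.98 and 34.55, and next to *Sox7*, *Pinx1* had 440.99 and 595.37. *Mipol1*, within 50 kb of *Foxa1*, had 26.68 and 47.75. Closer to *Foxa1*, *Ttc6* had 0.18 (1 read) and 9.38 (76.5 reads), a gene named after its value was seen. Next to *Foxa2*, 2674 bp away on the same strand, the non-coding transcript *9030622O22Rik* had 0 in ES cells and 10.96 in forebrain (22.5 reads), the direction of *Foxa2* itself. The pseudogene *Gm14108* on its other side had 2966.16 and 3167.59.

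A lincRNA that overlaps *Gata6* by 58 bp on the opposite strand, *1010001N08Rik*, had 0 in ES cells and 2.39 in forebrain (6 reads). Around *Ttr*, the transcript *Gm16090*, which overlaps it by 11 bp on the opposite strand, had 35.82 and 4.33, and *B4galt6* had 1060.06 and 176.95, both higher in ES cells, while *Gm10269* had 3045.72 and 2675.02. Whether strand was used in the counting is not given in the sources used here, so reads in these overlaps cannot be assigned to a gene with certainty. The transcript *Gm16311*, which overlaps *Dab2* by 6670 bp on the opposite strand, was not analysed here. No annotated gene lies within 50 kb of *Pdgfra*.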

How the data were processed

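After removal of rRNA, total RNA was made into stranded libraries and read from a single end (100 bp per the labels, whereas the methods of the study give a shorter length). The authors aligned these reads to mm9 (NCBIM37) and deposited 1 RPKM value per gene and sample. Bowtie 0.12.7 is among the tools in the submitters' processing notes. The deposited RPKM values were used as they are. They are 52.23 times (ES cells) and 48.97 times (E10.5 forebrain) the inferred reads per kb and per 1000000 reads on genes, so the unit is relative.

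Exonic lengths came from the GENCODE annotation of the same build, in which all 29311 genes had the same coordinates. Genes of at most 2500 bp of exon served to estimate the step of 1 read. Of their low values, 58.8% (ES cells) and 60.3% (forebrain) were whole multiples within 0.05, where chance gives 10.0%, and the estimate was checked on simulated data. Inferred reads were rounded to 1 decimal. Single values carry exact Poisson intervals and ratios exact binomial (Clopper-Pearson) intervals. A pseudocount of 1 was used on the log2 scale. With 1 library per group no p-value is given.

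The 10 genes and all lists were chosen with earlier results of these data known. The rule for naming genes of the lists took those at least 2-fold apart with an RPKM of at least 10, up to 5 in each direction by size, and defining markers. Only some of these genes are given for the lists of pluripotent, forebrain, ventral midline, mesenchymal, endothelial and blood cells. Neighbours were named if they overlap a gene or reach an RPKM of 10. *Afm*, *Cer1*, *Tmprss4* and *Sox1* were not analysed here, and *Tfcp2l1* was taken as *Tcfcp2l1*. For *Dab2*, the identifier with the longest exonic length was used. Protein sequences were not analysed here. Python 3.11.15, numpy 2.4.6, pandas 2.3.3, scipy 1.17.1 and matplotlib 3.10.9 were used.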

Additional observations from a re-analysis of the deposited data

How the results depend on the processing

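The median log2 difference of forebrain minus ES cells, 3.49, became 4.02 with a pseudocount of 0.1 and 2.23 with 5, 3.71 after division by the sum of values, 3.41 by the upper quartile and 3.61 with at least 3 inferred reads in either sample. Division by the sum shifted the median of all genes to 0.26, and the other scalings moved it by at most 0.1. Per kb and 1000000 inferred reads on genes, values are about 50 times smaller and the pseudocount weighs more, so the median fell to 0.52, with 2 genes at least 2-fold higher in forebrain and 0 in ES cells, where 11.5% and 8.2% of all listed genes were. With the same scaling at the level of the deposited values, chosen after seeing the data, the median was 3.56. With a pseudocount of 5, the genes at least 2-fold higher in forebrain fell from 9 to 6, compared with 20.7% of all listed genes. *Gata6* (0.78), *Afp* (0.8) and *Ttr* (0.34) no longer reached this limit. *Gata4* was no longer 2-fold higher in ES cells with a pseudocount of 5 (0 genes, 17.6% of all listed genes) or at 4-fold (0 genes). At least 10 inferred reads were reached by 2 genes in ES cells and by 8 in forebrain. The share of all listed genes at this limit was not computed. Among protein-coding genes the median percentile was 16.1 in ES cells and 32.9 in forebrain, and among genes above 0 it was 9.98 (8 genes) and 34.4. Of 78 alternatives for the counts of the lists, 7 moved by more than 1.5 times, 6 of them per kb and 1000000 reads and 1 for the FGF list, where *Fgfr1* lay at the 2-fold limit. No paired analysis was possible because each group has 1 library, and for the same reason no replicate could be left out.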
